A study of Homo sapiens with 3 samples.

Results

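Abundant RNA polymerase III transcripts were 10 genes of the 58037 in the deposited count table. They were RN7SL1 and RN7SL2, RN7SK, RPPH1, RMRP, the vault RNAs VTRNA1-1, VTRNA1-2 and VTRNA1-3, and the Y RNAs RNY1 and RNY3. They were taken by their Ensembl identifiers, and were picked in part for their high share of the OLFM4-knockout library. The share of that library, and every difference between it and another library, is therefore given as a description. By counts, the label held for only part of the set. Of the 10, 5 ranked among the 13 rows with the most counts in every library, and 3 had fewer than 50 counts in each library. RWPE1 is an immortalized line of normal human prostate epithelial cells. Bulk RNA was measured in 3 libraries of it, 1 each from OLFM4-wild cells, OLFM4-knockout cells and cells labelled OLFM4-active, with no replicate. All 3 were RWPE1 cells grown in the same way, and total RNA was depleted of ribosomal RNA before stranded libraries were made. Per the study's methods, knockout GFP reporter cells were made with double nickase CRISPR/Cas9 plasmids and a repair plasmid, and GFP reporter cells called OLFM4-wild with activation plasmids. Stable lines were selected with puromycin, and the RNA came from bulk cells sorted for GFP. The methods do not say whether the OLFM4-wild or the OLFM4-active library came from the cells made with activation plasmids.

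Below, these are called the wild library, the knockout library and the active-labelled library, always in that order where 3 values stand together. Total counts were 16309906, 58837147 and 23224216. OLFM4 itself, on chromosome 13 from 53028813 to 53052057 in GRCh38, was at 11.8, 2.55 and 0.670 CPM, which are counts scaled to a common library size. It was lowest in the active-labelled library, against that label. The 5 markers of basal epithelium, KRT5, KRT14, KRT15, TP63 and ITGA6, were detected in every library. Their summed level was 17945.8, 39786.4 and 21387.5 CPM, highest in the knockout library, and their part in the results was not tested. Of the luminal markers, KRT8 was at 282.2, 231.1 and 146.4 CPM and KRT18 at 176.7, 191.0 and 157.0 CPM, and KLK3 had 2, 0 and 0 counts. Of the fibroblast markers, LUM had 0 counts throughout, DCN had 18, 33 and 0, COL1A1 was at 30.2, 25.8 and 21.8 CPM and COL1A2 at 2.75, 5.22 and 1.004 CPM, and these collagen genes, the members of the list that averaged at least 1 CPM, summed to 32.97, 31.01 and 22.81 CPM. Of the leukocyte markers, CD3E had 0 counts, PTPRC 0, 2 and 0, and CD68 was at 31.4, 24.4 and 19.8 CPM. The endothelial markers CDH5, PECAM1 and VWF had 9 counts or fewer in each library, and the neuroendocrine markers CHGA and SYP 15 or fewer. The collagen genes and CD68 were lowest in the active-labelled library, and their part in the results was not tested.

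RNA polymerase III makes short noncoding RNAs, many of which work inside particles of RNA and protein. RN7SL1 and RN7SL2 encode the 7SL RNA of the signal recognition particle, which brings ribosomes making secreted proteins to the endoplasmic reticulum. RN7SK encodes the RNA that holds the elongation kinase P-TEFb inactive, RPPH1 the catalytic RNA of RNase P, which trims tRNA precursors, and RMRP the RNA of RNase MRP, which cuts ribosomal RNA precursors. Vault RNAs are found in and outside the vault particle, and Y RNAs bind the Ro60 protein. Transcription starts either from elements inside the gene, as at vault RNA genes, or from a TATA box and other elements before it, as at RN7SK, RPPH1 and RMRP.

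The 7SL genes are near-identical, and the reads that separate them decide how their counts were divided. RN7SL1 (ENSG00000276168.1) lies on chromosome 14 from 49586580 to 49586878 on the plus strand, RN7SL2 (ENSG00000274012.1) from 49862550 to 49862849 on the minus strand and RN7SL3, which was not among the 10, from 49853616 to 49853914 on the minus strand. Positions here and below are in GRCh38 with GENCODE version 44. RN7SL1 and RN7SL2 were identical at 98.3% of aligned positions. RN7SL1 and RN7SL3 were identical at 97.7%. The authors kept uniquely mapped read pairs, and the read length was 75 bases. Of the 225 stretches of 75 bases in RN7SL1, 22.7% were found once in the genome, against 15.9% in RN7SL2 and 78.2% in RN7SL3. A single read from most of RN7SL1 or RN7SL2 would therefore match more than 1 place, and the division of counts between the 7SL genes is uncertain.

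The 3 vault RNA genes lie in a row on the plus strand of chromosome 5, VTRNA1-1 (ENSG00000199990.1) from 140711275 to 140711373, VTRNA1-2 (ENSG00000202111.1) from 140718925 to 140719013 and VTRNA1-3 (ENSG00000202515.1) from 140726158 to 140726246. They are printed because each carries the internal element of a polymerase III gene. Capitals mark GTTCNANNC, the core of the element called box B.
VTRNA1-1: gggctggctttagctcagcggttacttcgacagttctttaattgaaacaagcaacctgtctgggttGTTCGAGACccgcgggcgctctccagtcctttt
VTRNA1-2: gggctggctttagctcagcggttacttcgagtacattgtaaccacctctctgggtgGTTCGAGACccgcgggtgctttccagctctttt
VTRNA1-3: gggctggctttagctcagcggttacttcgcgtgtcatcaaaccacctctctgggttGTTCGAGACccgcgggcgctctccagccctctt
Pairs of vault RNAs were identical at 79.8% to 86.5% of aligned positions, and 100% of their 75-base stretches were found once in the genome. GTTCNANNC was found in the first 100 bases of 4 of the 10 genes, the 3 vault RNA genes and RNY1, against 1.67% of 62663 annotated genes on the gene's own strand and 2.95% on either strand. A match describes letters, not use of the element.

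RNY1 (ENSG00000201098.1), on chromosome 7 from 148987136 to 148987248 on the minus strand, and RNY3 (ENSG00000202354.1), from 148983755 to 148983856 on the plus strand, are neighbors. They were identical at 71.7% of aligned positions. All 75-base stretches of RNY1 were found once in the genome, against 35.7% of those of RNY3.

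RN7SK (ENSG00000283293.1) lies on chromosome 6 from 52995621 to 52995948 on the plus strand. Its first 100 bases (52995621 to 52995720) are given because repeats of GATC in the 5′ hairpin take part in the binding of HEXIM1. Capitals mark GATC, found at positions 12, 41 and 63 counted from the 5′ end.
RN7SK: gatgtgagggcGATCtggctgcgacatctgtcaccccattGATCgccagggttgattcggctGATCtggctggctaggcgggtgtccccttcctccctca
Of the 75-base stretches of RN7SK 36.2% were found once in the genome, against 100% for RPPH1 and RMRP. RPPH1 (ENSG00000277209.1) lies on chromosome 14 from 20343075 to 20343407 and RMRP (ENSG00000277027.1) on chromosome 9 from 35657754 to 35658017, both on the minus strand. The 60 bases before the start of RPPH1 (chromosome 14, 20343408 to 20343467), RMRP (chromosome 9, 35658018 to 35658077) and RNY3 (chromosome 7, 148983695 to 148983754) are shown with TATAA in capitals, as genes of the kind with an upstream promoter.
RPPH1 upstream: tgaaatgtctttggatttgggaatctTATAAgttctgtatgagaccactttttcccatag
RMRP upstream: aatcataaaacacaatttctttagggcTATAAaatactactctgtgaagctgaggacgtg
RNY3 upstream: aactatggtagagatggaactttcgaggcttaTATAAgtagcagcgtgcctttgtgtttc
TATAA was found on the gene strand within 40 bases before the start of 5 of the 10 genes, against 4.44% of the 62663 annotated genes, or 6.02% on either strand. It began 34 bases before RPPH1, 33 before RMRP and 28 before RNY3, and 21 before both VTRNA1-1 and VTRNA1-2. RN7SK had the match on the opposite strand only, in a stretch that reads TTATATAG on its own strand. RN7SL1, RN7SL2, RNY1 and VTRNA1-3 had none in this window. The search took the exact letters TATAA, so variants of a TATA box were not counted.

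The 10 RNAs together held 5.12% of all counts in the wild library (95% Clopper-Pearson interval 5.11 to 5.13), 8.22% in the knockout library (8.21 to 8.23) and 4.77% in the active-labelled library (4.76 to 4.78). Their share was highest in the knockout library, for which they were picked. Intervals here and below account for counting error alone, and with 1 library per condition no difference can be assigned to the condition. The 7SL RNAs held most of this excess, with 1.68%, 4.02% and 1.77% of counts in the same order. RN7SK held 2.34%, 2.29% and 1.73%, so its share of the knockout library was slightly below that of the wild library. RPPH1 held 0.615%, 1.16% and 0.774%, and RMRP 0.476%, 0.735% and 0.480%. The vault RNAs held 0.000963%, 0.00236% and 0.00285%, and the Y RNAs 0.00768%, 0.00900% and 0.0153%, so both of these short RNA families had their highest share in the active-labelled library. Since bulk RNA was measured, more cells with these RNAs and more of the RNA per cell cannot be told apart.

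**Figure D1:**
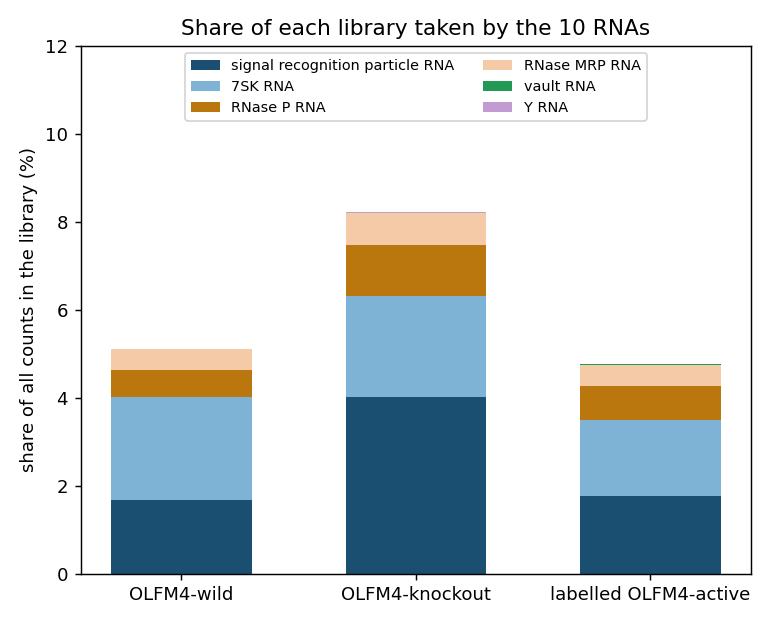
Share of all counts in each library (percent, linear axis) taken by the 10 RNAs, with 1 bar per library and 1 color per RNA family. The bars reach 5.12%, 8.22% and 4.77%, and the 7SL segment is 4.02% in the knockout library, while vault and Y RNAs are too small to see.

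Several of these genes have a second row in the table. RN7SK has a row named 7SK with identical counts in the 3 libraries, and RN7SL1 and RMRP each have another row with identical counts under an identifier not found in GENCODE version 44. RPPH1 lies inside the long noncoding gene ENSG00000259001 on the same strand, whose 100359, 688658 and 181027 counts were nearly those of RPPH1. RN7SL2 is overlapped by ENSG00000282885, which had 14, 13 and 3 counts. The 3 identical rows held a further 3.63%, 4.65% and 2.87% of the table's total counts. With them the shares became 8.74%, 12.9% and 7.65%, and with the overlapping rows 9.36%, 14.03% and 8.43%. The same reads thus entered the totals more than once. Below, each RNA's own counts come from 1 row unless stated. The library sizes, their scaling and the shares of all genes still include the repeated rows.

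Levels were then taken as CPM over library sizes scaled with TMM factors of 1.11, 0.872 and 1.03, and log2 fold changes with 0.5 counts added. Against library totals this scaling raised each log2 fold change of knockout against wild by 0.35. The median of the 16600 genes that averaged at least 1 CPM was 0.10 with it and -0.26 without it. On this scale all 10 RNAs were higher in the knockout than in the wild library, of which RN7SK and VTRNA1-2 turned below 0 with library totals, with a median log2 fold change of 1.31 and a range from 0.09 to 3.55. Of the 16600 genes, 56.7% were above 0. A value above 1 was found for 6 of the 10, RN7SL1, RN7SL2, RPPH1, VTRNA1-1, VTRNA1-3 and RNY3, where 5.77% of the 16600 genes were above 1. Values above 2 were found for 2 of the 10, where 0.663% of the genes were above 2. These were VTRNA1-1 and RNY3, which had 1 and 2 counts in the wild library and lay under the mean of 1 CPM that the other genes had to reach. Among genes with any count in either library 2.51% were above 2. In total 7 of the 10 reached that mean. Because the knockout library served to pick the RNAs, nothing is read from these counts.

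**Figure D2:**
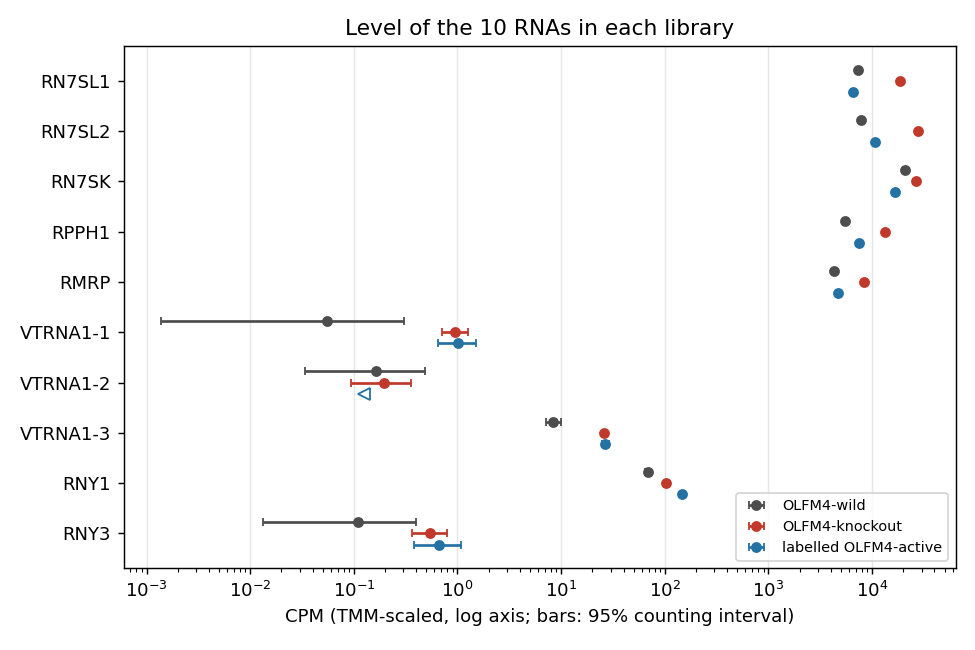
Level of each of the 10 RNAs in each library, in TMM-scaled CPM on a log axis, with bars for the 95% counting interval and an open triangle at the 3-count floor where no read was counted. RN7SL1, RN7SL2, RN7SK, RPPH1 and RMRP lie between 4268.6 and 27508.2 CPM with the knockout library to the right, and the vault and Y RNAs lie between 0 and 147.6 CPM.

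The 7SL RNAs showed the largest differences among the abundant RNAs in the comparisons with the knockout library, but not in active-labelled against wild for RN7SL1. RN7SL1 had 132875 counts in the wild library, 951581 in the knockout library and 154881 in the active-labelled library, or 7312.6, 18537.2 and 6482.3 CPM. RN7SL2 had 141622, 1412092 and 256541 counts, or 7793.9, 27508.2 and 10737.1 CPM. The knockout library was the high one for both, and the order of the other libraries was opposite in the pair. In log2 terms the knockout library was above the wild library by 1.34 for RN7SL1 (1.33 to 1.35) and by 1.82 for RN7SL2 (1.81 to 1.83). The active-labelled library differed from the wild library by -0.17 for RN7SL1 (-0.18 to -0.16) and by 0.46 for RN7SL2 (0.45 to 0.47). RN7SL2 was the most abundant row of the whole table in the knockout library, against rank 5 in the wild and rank 4 in the active-labelled library.

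Ratios inside a library do not depend on its scaling, and those between the 7SL genes differed. There were 107 RN7SL2 counts per 100 RN7SL1 counts in the wild library, 148 in the knockout library and 166 in the active-labelled library. RN7SL3 gave 53.1, 65.2 and 79.0 counts per 100 RN7SL1 counts. RN7SL1 thus made up a smaller part of the counts of the 3 genes in the knockout and active-labelled libraries than in the wild library, beyond counting error. RN7SL3 itself was at 3885.5, 12089.1 and 5121.8 CPM, with a log2 fold change of 1.64 in knockout against wild, between those of RN7SL1 and RN7SL2. The other 846 rows named as 7SL copies, of which 311 had a count, summed to 1.63, 1.33 and 3.49 counts per 100 counts of RN7SL1 and RN7SL2. One of them, RN7SL5P, had 1749, 12488 and 10126 counts and was picked out after its values were seen. These near-identical copies differ in how they divide between libraries, and whether reads moved between them was not tested. RN7SL1 lies inside the gene RPS29 on the opposite strand, and stranded counting keeps their reads apart.

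**Figure D3:**
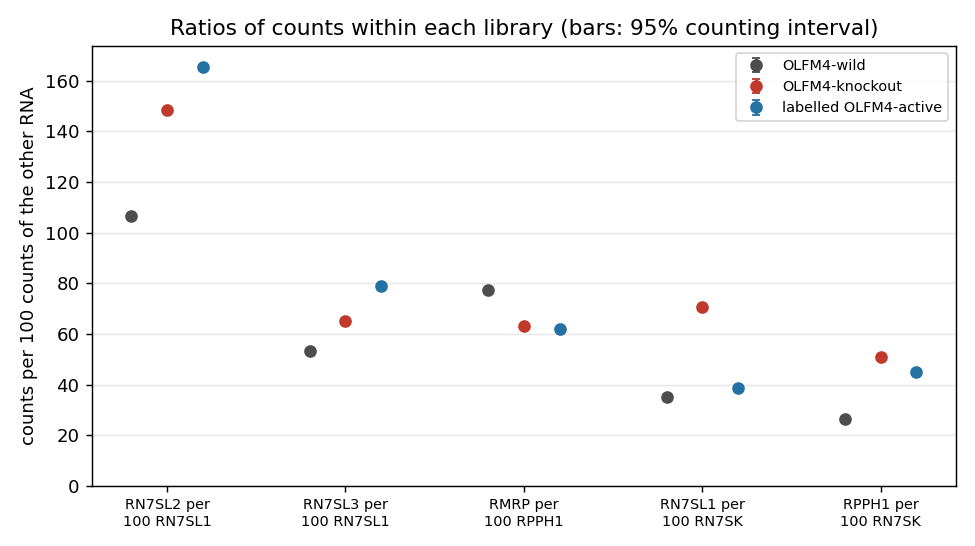
Counts of 1 RNA per 100 counts of another within each library (linear axis from 0), with bars for the 95% counting interval, most of them smaller than the points. RN7SL2 per 100 RN7SL1 stands at 107, 148 and 166 in the 3 libraries, and RN7SL1 per 100 RN7SK at 34.9, 70.5 and 38.6.

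RN7SK, the inhibitory RNA of P-TEFb, was the most abundant of the 10 per base in the wild library. It had 380990, 1349144 and 401125 counts, or 20967.2, 26282.0 and 16788.4 CPM, and was the row with the most counts in the wild library and in the active-labelled library, but rank 3 in the knockout library. The knockout library was above the wild library by 0.33 in log2 terms (0.32 to 0.33) with TMM, but at -0.03 with library totals, so the direction turns with the scaling. The active-labelled library was below the wild library on both scales, at -0.32 (-0.33 to -0.31) and -0.44. RN7SK was the abundant RNA with the smallest difference between the knockout and wild libraries. Rows named as 7SK copies, 299 in number, summed to 0.933, 1.54 and 1.35 counts per 100 RN7SK counts.

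Relative to RN7SK, the other abundant RNAs stood higher in the knockout library than in the wild library. RN7SK was no fixed reference, since its own level differed between libraries. It had the lowest log2 fold change of the abundant RNAs in knockout against wild, so the others had to stand higher there. RN7SL1 gave 34.9, 70.5 and 38.6 counts per 100 RN7SK counts in the 3 libraries. RPPH1 gave 26.3, 50.7 and 44.8, and RMRP 20.4, 32.1 and 27.8. These 3 RNAs were thus higher relative to RN7SK in both of the other libraries than in the wild library. RN7SL1 in the active-labelled library was the nearest to its wild value, and there RN7SL1 and RN7SK were both below their wild levels in CPM. RNY1 gave 0.328, 0.391 and 0.879, with its highest value in the active-labelled library.

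RPPH1 and RMRP, the RNAs of a pair of related ribonucleases, had the same order of libraries. RPPH1 had 100283, 683585 and 179778 counts, or 5518.9, 13316.6 and 7524.3 CPM. RMRP had 77564, 432563 and 111522 counts, or 4268.6, 8426.5 and 4667.6 CPM. Both were highest in the knockout library and lowest in the wild library. The log2 fold changes in knockout against wild were 1.27 for RPPH1 (1.26 to 1.28) and 0.98 for RMRP (0.97 to 0.99). In active-labelled against wild they were 0.45 (0.44 to 0.46) and 0.13 (0.12 to 0.14), the latter 0.01 with library totals. RMRP per 100 RPPH1 counts was 77.4, 63.3 and 62.0, so the balance in the knockout and active-labelled libraries lay further toward RPPH1 than in the wild library.

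The genes beside these RNAs did not show one pattern. PARP2, a DNA damage sensor transcribed away from RPPH1 with a start 207 bases from it, had 586, 4987 and 1375 counts and log2 fold changes of 1.59 (1.47 to 1.72) and 0.83 (0.69 to 0.98) in the knockout and active-labelled libraries against the wild library. CCDC107, beside RMRP, was at -0.42 (-0.73 to -0.10) and -0.61 (-1.002 to -0.22). Both neighbors were chosen after their values were seen.

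Among the vault RNAs only VTRNA1-3 was well covered. VTRNA1-3 had 153, 1331 and 637 counts, or 8.42 CPM in the wild library (7.14 to 9.87), 25.9 in the knockout library (24.6 to 27.4) and 26.7 in the active-labelled library (24.6 to 28.8). Both other libraries lay above the wild library, by log2 1.62 (1.38 to 1.87) and 1.66 (1.41 to 1.93), and their difference of -0.04 (-0.18 to 0.10) was within counting error on this scale, but was -0.28 with library totals. VTRNA1-1 had 1, 49 and 24 counts, or 0.0550, 0.955 and 1.004 CPM. Its ratio to the wild library was 17.3 (2.97 to 699) in the knockout library and 18.3 (2.98 to 751) in the active-labelled library, both resting on 1 wild count. VTRNA1-2 had 3, 10 and 0 counts, where the floor of 3 counts is 0.126 CPM and the counting interval of 0 counts reaches 0.154 CPM. Its ratio in knockout against wild was 1.18 (0.304 to 6.67), so that a difference was not detectable at this depth, and it turned below 1 with library totals. Set against the floor of 3 counts in the active-labelled library, VTRNA1-2 was 1.55-fold higher in the knockout library. This value, 0.63 on the log2 scale and 0.40 with library totals, leaves out the counting error of its 10 counts, and the counting interval of the log2 fold change reached down to 0.06.

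The Y RNAs differed from the abundant RNAs in having their highest levels in the active-labelled library. RNY1 had 1250, 5268 and 3527 counts, or 68.8 CPM (65.0 to 72.7), 102.6 CPM (99.9 to 105.4) and 147.6 CPM (142.8 to 152.6). Its log2 fold change against the wild library was 0.58 (0.49 to 0.67) in the knockout library and 1.10 (1.01 to 1.20) in the active-labelled library. RNY3 had 2, 28 and 16 counts, or 0.110, 0.546 and 0.670 CPM. Its ratios to the wild library were 4.96 (1.25 to 42.9) and 6.08 (1.43 to 54.5), and the knockout and active-labelled libraries were within counting error of each other. RNY4, not among the 10, had 3, 11 and 9 counts. Rows named as Y RNA copies, 809 in number, gave 57.8, 29.4 and 25.0 counts per 100 counts of RNY1 and RNY3, so copies made up a larger part of the Y RNA counts in the wild library.

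Levels per base allow for length but not for the share of each RNA that reads can be placed on uniquely, which was 22.7%, 15.9% and 36.2% of 75-base stretches for RN7SL1, RN7SL2 and RN7SK and 100% for RPPH1 and RMRP, so the order is that of the counted reads. In the wild library RN7SK had 63.9 CPM per base, RN7SL2 26.0, RN7SL1 24.5, RPPH1 16.6 and RMRP 16.2. In the knockout library RN7SL2 led with 91.7, before RN7SK with 80.1, RN7SL1 with 62.0, RPPH1 with 39.99 and RMRP with 31.9. In the active-labelled library the order was RN7SK at 51.2, RN7SL2 at 35.8, RPPH1 at 22.6, RN7SL1 at 21.7 and RMRP at 17.7. These 5 kept apart from the rest in every library, and RPPH1 passed RN7SL1 only in the active-labelled library. RNY1 followed with 0.609, 0.908 and 1.31 CPM per base and VTRNA1-3 with 0.0946, 0.291 and 0.300. The other 3 were at or below 0.0102, and their counting intervals overlapped in the wild library, so their order is not resolved there. How well RNAs of unlike length were recovered in the libraries was not tested, so levels of short and longer RNAs compare as counts only.

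The active-labelled library and the wild library were not the ones the RNAs were picked on. That comparison shares the wild library with the one above, so its values are given beside the others without an overlap. Of the 9 RNAs with a fold, 7 were higher in the active-labelled library and 2, RN7SL1 and RN7SK, were lower, with a median log2 fold change of 0.46, where 53.9% of the 16600 genes were above 0 and their median was 0.05. Values above 1 were found for 4, VTRNA1-1, VTRNA1-3, RNY1 and RNY3, where 3.78% of the genes were above 1. Of these 4, VTRNA1-1 and RNY3 lay under the mean of 1 CPM that the other genes had to reach. The same low-count RNAs as before, VTRNA1-1 and RNY3, were above 2, where 0.506% of the genes were, or 4.09% of those with any count in either library. The share of the 10 together barely differed, with a log2 fold change of 0.01 with TMM and -0.10 with library totals.

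The knockout library against the active-labelled library divided the longer, abundant RNAs from the shorter, less abundant ones. The 5 RNAs of 264 to 333 bases were all higher in the knockout library, RN7SL1 by log2 1.52 (1.51 to 1.52), RN7SL2 by 1.36 (1.35 to 1.36), RMRP by 0.85 (0.84 to 0.86), RPPH1 by 0.82 (0.82 to 0.83) and RN7SK by 0.65 (0.64 to 0.65). The RNAs of 89 to 113 bases were not, apart from VTRNA1-2, for which the active-labelled library was set at the floor of 3 counts. RNY1 was lower, at -0.52 (-0.59 to -0.46), and the intervals of VTRNA1-1, VTRNA1-3 and RNY3 covered 0. Values above 1 were found for 2 of the 10, RN7SL1 and RN7SL2, where 2.95% of the genes were above 1. None was above 2, where 0.259% of the genes were, or 3.92% of those with any count in either library, and 6 were above 0, where 56.7% of the genes were. The median of the 10 was 0.64 with VTRNA1-2 at this floor and 0.65 without it, against 0.08 for the 16600 genes. This split was noticed in the values. The 5 longer RNAs were also the 5 most abundant, so length and abundance cannot be told apart here. The RNAs were also picked in part for their share of the knockout library, so nothing is read from the split.

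**Figure D4:**
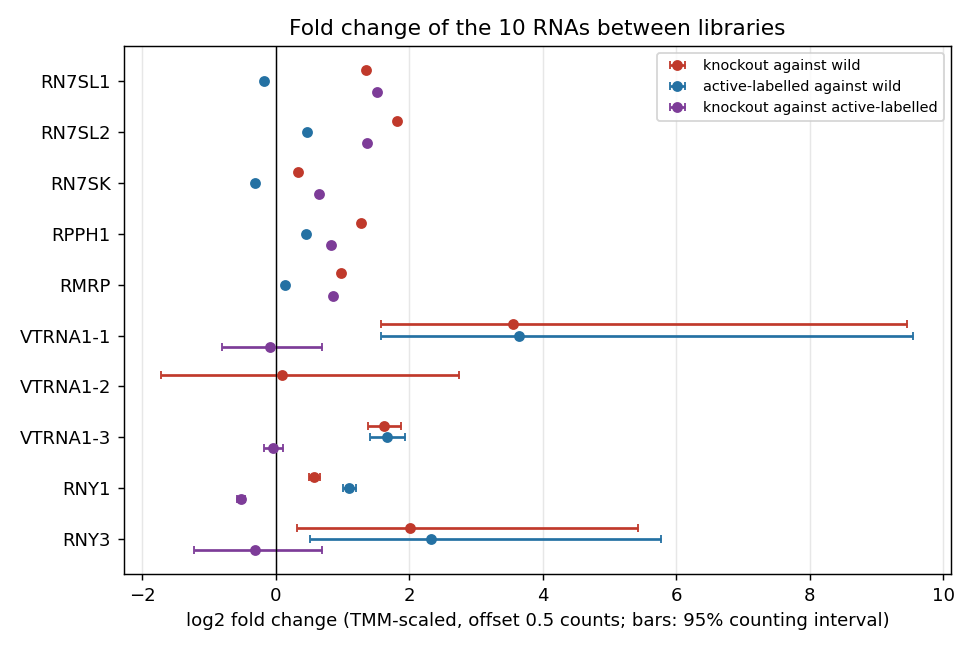
Log2 fold change of each RNA for the 3 pairs of libraries (TMM-scaled, linear axis), with bars for the 95% counting interval; VTRNA1-2 is drawn only where neither library had 0 counts. The points for knockout against active-labelled lie right of 0 for the 5 long RNAs, from 0.65 to 1.52, and at -0.04 to -0.52 for the 4 short RNAs drawn.

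Other short noncoding genes were measured in the same way, and as a class they differed from all genes mainly in the comparisons with the wild library. There were 394 noncoding genes of up to 400 bases that averaged at least 1 CPM, without the 10 RNAs and their identical or overlapping rows. RN7SL3 and rows named as copies of the 10 RNAs were not left out where they met these limits. The class is therefore not fully separate from the 10 RNAs, and the part of such rows in the medians below was not tested. In knockout against wild the median log2 fold change of the 394 genes was 0.61, where that of the 16600 genes was 0.10. Of the 394, 31.7% were above 1, where 5.77% of the 16600 genes were. In active-labelled against wild the median was 0.46 against 0.05 for the 16600 genes, with 28.9% above 1 against 3.78%. Short noncoding genes as a class were thus higher in the knockout and active-labelled libraries, and their part in the differences of the 10 RNAs was not tested. Between the knockout and active-labelled libraries the median was 0.12, near the 0.08 of the 16600 genes. Split by length, it was 0.01 for 219 genes of up to 150 bases and 0.33 for 175 genes longer than that and up to 400 bases. The small nucleolar RNAs held 0.440%, 0.762% and 0.679% of all counts in the 3 libraries.

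Apart from copies, few other polymerase III transcripts were well covered in this table. RNU6-2, a gene of the U6 spliceosomal RNA, had 11, 183 and 59 counts and a log2 fold change of 2.50 (1.69 to 3.59) in knockout against wild. RNU6ATAC, the U6 RNA of the minor spliceosome, had 311, 749 and 561 counts and a value of -0.23 (-0.42 to -0.03). These pointed in opposite directions, and together with RN7SL3 they were the 3 of 10 listed genes that averaged at least 1 CPM. The others, RNU6-1, RNU6-7, RNU6-8, RNU6-9, RNY4, BCYRN1 and VTRNA2-1, had 21 counts or fewer in each library. The 519 rows named as 5S ribosomal RNA genes or copies, of which 127 had a count, summed to 1463, 911 and 1261 counts, fewest in the knockout library although it was the deepest. A single row, RNA5SP202, held 462 of the 911. Ribosomal RNA had been depleted and only uniquely mapped pairs were counted, so these sums do not give the level of 5S RNA in the cells. The 1271 rows named as U6 copies summed to 562, 854 and 584 counts, which is less than in proportion to the depth of the knockout library. These groups thus took a smaller part of the knockout library than of the wild library.

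The small nuclear RNAs of the spliceosome that polymerase II makes served as short RNAs from another polymerase. Of 19 listed, 14 had a mean of at least 1 CPM. In knockout against wild 13 were above 0, or 9 with library totals, and 4 above 1, where 56.7% and 5.77% of all genes were. Their median was 0.65 against 0.10 for all genes, and 0.29 against -0.26 with library totals. RNU4ATAC at 2.17, RNU5F-1 at 2.04 and RNVU1-7 at 1.83 were the highest. RNU5B-1 at -0.06, RNU5E-1 at 0.03 and RNU1-2 at 0.24 were the lowest. In active-labelled against wild all 14 were above 0 and 10 above 1, where 53.9% and 3.78% of all genes were, with a median of 1.19 against 0.05. Like RNY1, 13 of the 14 were lower in the knockout library than in the active-labelled library, with a median of -0.39.

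The protein partners of each RNA were described in turn in knockout against wild. There 56.7% of the 16600 genes were above 0 and 5.77% above 1, with a median of 0.10. With library totals the median of the 16600 genes was -0.26, which stands beside each list median given for that scale. Of the 8 proteins of the signal recognition particle and its receptor, 7 were above 0 with a median of 0.33, but with library totals 4 were above 0 and the median was -0.02. SRPRB, the beta subunit of the receptor, was at 1.12 and SRP68 at -0.28. SRP19, SRPRA, SRP9, SRP54, SRP14 and SRP72 lay between 0.24 and 0.49. SRPRB was the only one of the 8 above 1.

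Of the 7 genes of the 7SK particle and P-TEFb, 4 were above 0, with a median of 0.07 that became -0.29 with library totals. MEPCE, the capping enzyme of 7SK, was at 0.45, CDK9, the kinase of P-TEFb, at 0.41, and LARP7, which binds the 3′ end of 7SK, at 0.09. The cyclins CCNT2 and CCNT1 were at 0.07 and -0.01, HEXIM2 at -0.15 and HEXIM1, the inhibitor of the kinase, at -0.50. HEXIM1 was at 29.5, 20.9 and 31.4 CPM in the 3 libraries, lowest in the knockout library.

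The proteins of RNase P and RNase MRP were the partner list that stood highest. All 11 were above 0 on the TMM scale, beside 56.7% of all genes, and 10 on that of library totals, with medians of 0.70 and 0.35. RPP40 was at 1.71 (1.43 to 2.02), POP1, the large scaffold protein, at 1.55 (1.38 to 1.74) and RPP25 at 1.45 (1.30 to 1.62). RPP14 at 0.34, RPP38 at 0.40 and RPP30 at 0.45 were the lowest. RPP40 was at 5.94 CPM in the wild library, 19.6 in the knockout library and 21.97 in the active-labelled library, so the wild library was the low one. In active-labelled against wild 10 of the 11 were above 0, beside 53.9% of all genes, with a median of 0.40.

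The vault proteins differed little in knockout against wild. MVP, the shell protein of the vault, was at 0.19, PARP4 at 0.01 and TEP1 at -0.22, and all 3 were below 0 with library totals. MVP was lowest in the active-labelled library, at -0.76 (-0.88 to -0.65) against wild. Of 11 genes for proteins that bind or modify Y and vault RNAs or the 3′ ends of polymerase III transcripts, 10 were above 0, with a median of 0.52. With library totals 7 were above 0 and the median was 0.16. LSM7 at 0.99, LSM6 at 0.90 and NSUN2, a methyltransferase of vault RNA, at 0.65 were the highest, and DIS3L2 at 0.21, LSM8 at 0.04 and RO60, the Y RNA binding protein, at -0.01 the lowest.

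The genes of the polymerase itself were described in the same way. Of 18 subunit genes, 16 were above 0 and 3 above 1, beside 56.7% and 5.77% of all genes, with a median of 0.29. With library totals 8 were above 0 and the median was -0.06, where that of all genes was -0.26. POLR3K at 1.26, POLR1C at 1.08 and POLR2F at 1.001 were the highest, and POLR3F at -0.18, POLR3GL at -0.11 and POLR3A, the largest subunit, at 0.05 the lowest. Of 19 genes for transcription factors and regulators of the polymerase, 14 were above 0, beside the same 56.7%, and 7 with library totals, with medians of 0.23 and -0.12. MAF1, a repressor of the polymerase, was at 0.63, and BRF2 and BRF1, subunits of the initiation factor at the genes with upstream and internal promoters respectively, at 0.62 and 0.58. SNAPC3 at -0.51 and POU2F1 at -0.50, both of which act at upstream promoters, and BDP1 at -0.44 were the lowest. In active-labelled against wild the medians were 0.33 for the subunits and 0.01 for the factors.

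**Figure D5:**
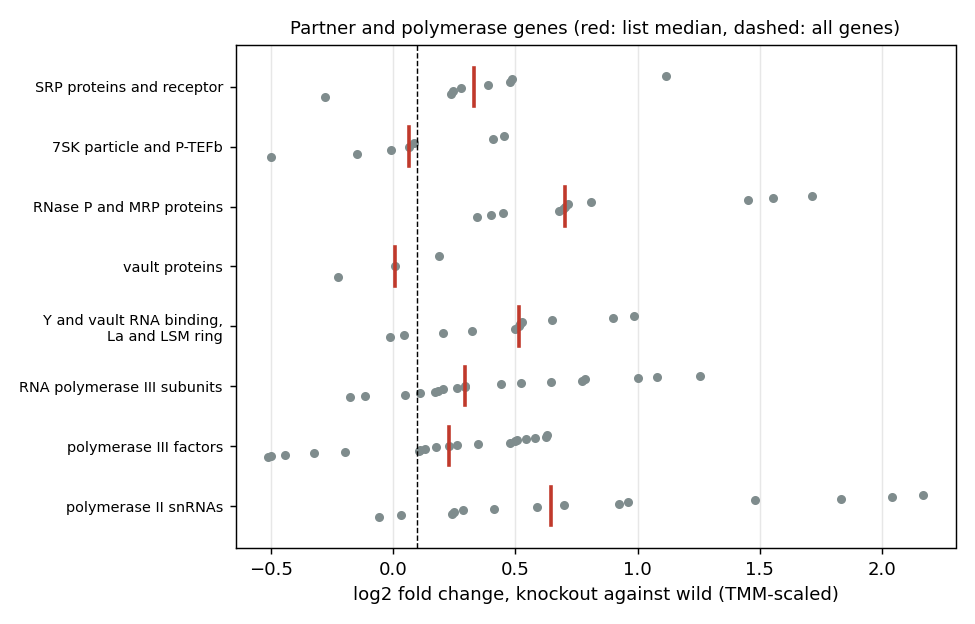
Log2 fold change in knockout against wild (TMM-scaled, linear axis) of each gene with a mean of at least 1 CPM in 8 lists, with a red line at the list's median and a dashed line at the median of all genes, 0.10. The RNase P and MRP proteins all lie right of 0 with a median of 0.70, and of them RPP14 turns below 0 with library totals. The 7SK particle has a median of 0.07, or -0.29 with library totals, where the median of all genes is -0.26.

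The genes with the values nearest to those of RN7SK and RN7SL1 were taken from 10587 genes averaging at least 10 CPM, by the distance between their log2 fold changes of the knockout and active-labelled libraries against the wild library, hence over 3 libraries. For RN7SK these were TEDC1, GET1, CTSL, MED9 and ENSG00000255730, at distances of 0.01 to 0.02. For RN7SL1 they were KRT10-AS1, ID1, SAMD11, CLTB and ENSG00000274021, at distances of 0.15 to 0.22. The nearest genes were closer to RN7SK than to RN7SL1. RN7SL1 was above 1 in knockout against wild, as were only 5.77% of the 16600 genes, so fewer genes could lie near it. Nothing is read from this difference in distance. ID1, an inhibitor of helix-loop-helix transcription factors, was at 1.18 and -0.22.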

How the data were processed

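Bulk RNA of RWPE1 cells was sequenced in 3 libraries, 1 per condition. The authors trimmed reads with cutadapt, aligned them to GRCh38 with HISAT2 and counted uniquely mapped, reversely stranded pairs with featureCounts, as named in the labels and the methods. The deposited table holds whole-number counts per gene without normalization. The table's names and positions were taken from GENCODE version 44, in which 56948 of the 58037 identifiers were found.

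TMM factors came from edgeR 4.0.16 in R 4.3.3. Values, intervals and sequence searches used Python 3.11.15 with scipy 1.17.1, pandas 2.3.3, numpy 2.4.6 and biopython 1.88, and plots matplotlib 3.10.9. Intervals are exact Clopper-Pearson at 95%, conditional for fold changes. Since every condition had 1 library, no test was run. The floor was 3 counts, or 0.165, 0.0584 and 0.126 CPM. Alternatives included library totals, upper quartile factors, DESeq2 1.42.0 size factors, other offsets, other denominators and thinning to 16309906 counts. Procedures were tested on simulated data.

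The members and gene lists were chosen with earlier results of these data known. Named were the 10 RNAs and their identical rows, the 3 highest and 3 lowest genes of each list in knockout against wild at a mean of at least 1 CPM, all genes of lists of up to 8, the 5 genes most like RN7SK and RN7SL1 at a mean of at least 10 CPM, and OLFM4. RPS29, PARP2, CCDC107, RN7SL5P and the overlapping rows were named besides. Some sequences and 2 cell type markers are not reported here.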

Additional observations from a re-analysis of the deposited data

How the results depend on the processing

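No paired analysis was possible because each condition had 1 library, and for the same reason no library could be left out. Under library totals the median log2 fold change of the 10 RNAs in knockout against wild was 0.95 in place of 1.31. The number above 2 in that comparison was 1 with library totals, with upper quartile factors, with protein-coding rows only, with an offset of 1 and after thinning, and 0 with an offset of 5, since it rests on RNAs with 1 and 2 wild counts. For active-labelled against wild the median was 0.35 with library totals, 0.44 with protein-coding rows and 0.29 with identical rows added, in place of 0.46, and with an offset of 5 the number above 2 was 0.

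The summed shares in the 3 libraries were 8.74%, 12.9% and 7.65% with identical rows added, 6.16%, 10.4% and 5.65% of protein-coding counts, 5.39%, 8.96% and 5.01% of counts outside the 10 RNAs, 2.78%, 5.93% and 3.04% without RN7SK, and 3.44%, 4.201% and 3% without RN7SL1 and RN7SL2. Against a total without identical and overlapping rows, an alternative chosen after seeing the data, they were 5.35%, 8.73% and 4.95%. The knockout library had the highest share under each of these 6 alternatives.

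Of single RNAs, RN7SK and VTRNA1-2 changed direction in knockout against wild, with ranges of -0.03 to 0.34 and -0.59 to 0.97 over 8 alternatives, as did VTRNA1-1 in knockout against active-labelled, from -0.33 to 0.45. Counting depth limits VTRNA1-1, VTRNA1-2 and RNY3.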
